A study of Mus musculus with 4 samples.

Results

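Keratin genes were followed in gastric corpus samples of wild-type mice after high-dose tamoxifen. Members were all genes whose platform symbol is Krt followed by digits and an optional letter, read only from probe sets with exactly 1 symbol, and where a gene had several, the probe set brightest on average was used. This gave 48 keratin genes, from 61 probe sets, among 18193 genes measured. Keratin-associated protein genes (Krtap) and Krtdap are not keratins and were not members. The arrays, Affymetrix Mouse Genome 430 2.0, covered tamoxifen at 12 hours, at 2.5 days and also at 4.5 days, and vehicle at 2.5 days. Each group was 1 array, made from RNA pooled from 3 mice and amplified before labelling. All were wild type and 6 weeks old when treated. The labels name C57BL/6, BALB/c and also FVB/N mice without tying a strain to an array. Tamoxifen was injected intraperitoneally at 5 mg per 20 g of body weight, for 1 or 3 days, a length the labels do not tie to arrays either, to induce SPEM (spasmolytic polypeptide-expressing metaplasia, in which corpus glands carry mucous neck cell transcripts). The vehicle was sunflower seed oil (90%) with ethanol (10%). Vehicle was taken at 2.5 days only and served all 3 comparisons, and with 1 pool per group no test between groups could be made.

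Keratins are the intermediate filament proteins of epithelial cells. Each filament is built from pairs of an acidic type I and a neutral to basic type II keratin, so the genes are used in partner sets. Single-layered epithelia such as the stomach glands make Krt8 with Krt18, together with Krt7, Krt19 or Krt20. Stratified squamous epithelia such as the skin, the esophagus and the mouse forestomach make Krt5 with Krt14 in the basal layer. Above it they switch to Krt4 with Krt13 in moist mucosa or Krt1 with Krt10 in cornifying epithelium. Wounded or fast-growing stratified epithelium adds Krt6a, Krt6b, Krt16 and Krt17. The forestomach directly adjoins the corpus in the mouse.

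Of the members, 5 were simple epithelial keratins and 12 were squamous or wound keratins, namely 3 basal, 2 mucosal suprabasal, 3 epidermal suprabasal and 4 wound keratins. A further 21 belong to hair and the inner root sheath, and 10 to none of these classes. Type was assigned by position, with members on mouse chromosome 11 and Krt18 taken as type I and the others as type II. This gave 25 type I and 23 type II keratins. Krt18 lies beside Krt8 on chromosome 15, where the members taken as type II lie. Levels are log2 RMA values, differences are on the log2 scale, and a difference of 1 is 2-fold. A gene counted as expressed in a comparison if its level on the brighter array of the pair reached the array's overall probe set median, which was 5.31 in vehicle and 5.34 at 12 hours, 5.30 at 2.5 days and 5.32 at 4.5 days of tamoxifen. By that measure 20 keratins were at or above the median on all 4 arrays, 20 on no array and 8 on some of them. These files hold no detection calls, so a level below the median may lie near background. A difference that involves one is given as measured, and its size and its rank among others are uncertain.

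The promoters of a pair of squamous and a pair of simple keratins are shown because these genes carried the contrast between the groups of keratins. Each runs from 250 bases before to 50 bases after the annotated start in RefSeq's GRCm38 annotation. Krt13 (chr11:100121517-100121816, minus strand) and Krt10 (chr11:99389315-99389614, minus strand) are type I suprabasal keratins, and Krt8 (chr15:102004293-102004592, minus strand) and Krt18 (chr15:102027966-102028265, plus strand) are simple partners. Capitals mark ATAAA, the core of a TATA box, CCACCC, the kind of GC-rich box bound by KLF factors, and TGANTCA, each searched on both strands. TGANTCA is a loose form of the AP-1 motif, with any base allowed in the middle.
Krt13: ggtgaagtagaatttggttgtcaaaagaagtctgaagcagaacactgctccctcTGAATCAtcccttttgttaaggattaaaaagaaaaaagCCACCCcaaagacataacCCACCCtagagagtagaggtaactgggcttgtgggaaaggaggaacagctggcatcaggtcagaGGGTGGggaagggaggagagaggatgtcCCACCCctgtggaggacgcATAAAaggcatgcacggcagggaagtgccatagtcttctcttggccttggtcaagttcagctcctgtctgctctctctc
Krt10: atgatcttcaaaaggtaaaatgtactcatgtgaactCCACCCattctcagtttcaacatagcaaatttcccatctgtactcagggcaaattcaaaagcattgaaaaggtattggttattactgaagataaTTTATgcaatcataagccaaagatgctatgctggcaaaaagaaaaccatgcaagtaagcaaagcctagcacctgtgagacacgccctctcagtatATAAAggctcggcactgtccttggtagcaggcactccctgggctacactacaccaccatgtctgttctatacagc
Krt8: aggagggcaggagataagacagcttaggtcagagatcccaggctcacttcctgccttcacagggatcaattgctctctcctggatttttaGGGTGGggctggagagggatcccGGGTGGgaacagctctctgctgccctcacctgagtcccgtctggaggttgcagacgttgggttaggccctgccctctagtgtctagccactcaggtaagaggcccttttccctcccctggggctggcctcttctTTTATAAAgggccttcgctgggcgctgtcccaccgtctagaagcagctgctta
Krt18: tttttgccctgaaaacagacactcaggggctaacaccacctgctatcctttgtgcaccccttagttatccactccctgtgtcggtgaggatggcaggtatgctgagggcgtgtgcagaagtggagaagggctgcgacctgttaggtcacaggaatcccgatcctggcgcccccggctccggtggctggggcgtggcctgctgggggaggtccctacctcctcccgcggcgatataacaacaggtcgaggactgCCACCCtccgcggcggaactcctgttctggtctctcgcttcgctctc
ATAAA stood at position -29 in Krt13 and -25 in Krt10 relative to the start. In Krt8 it stood at position 1, and the reverse strand match at -3 overlaps it. The Krt18 window had no ATAAA. The CCACCC box was found 4 times in Krt13, 2 times in Krt8 and 1 time each in Krt10 and Krt18. TGANTCA was found in Krt13 alone of these windows, at position -196, with A as the middle base. Of the keratin members, 32 had a promoter in the table, and 29 of them held ATAAA, 15 held CCACCC and 1 held TGANTCA. Among all 32851 promoter windows of this length, 40.0% held ATAAA, 31.5% CCACCC and 7.81% TGANTCA. The first and the second motif were each in 4 of the 5 squamous and wound keratins with a window and in 3 of the 4 simple keratins with one. These matches describe letters in a window and were not tied to binding.

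Simple keratins were high on every array and none of them reached 2-fold against vehicle. Krt8, the main type II keratin of gland cells, was at 14.05 in vehicle, 14.17 at 12 hours, 14.20 at 2.5 days and 14.26 at 4.5 days of tamoxifen. Its differences were 0.13, 0.16 and 0.22, and its 3 probe sets ranged from 0.06 to 0.13, from 0.11 to 0.16 and from 0.19 to 0.22. Krt18, its type I partner, was at 12.77 in vehicle, 13.30 at 12 hours, 13.07 at 2.5 days and 13.13 at 4.5 days. All 3 tamoxifen arrays were above vehicle for both partners, by no more than 0.53. Krt19, a type I keratin of ductal and glandular epithelium, stayed within 0.07 over the 4 arrays, at 13.51 in vehicle, 13.53 at 12 hours, 13.52 at 2.5 days and 13.58 at 4.5 days. The highest value on an array was between 14.75 and 14.85, so Krt8 stood near the top of the scale throughout.

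Krt7 and Krt20 were the simple keratins that differed most between times. Krt7, a type II keratin of ducts, was at 10.85 in vehicle, 10.69 at 12 hours, 11.09 at 2.5 days and 11.69 at 4.5 days. Its difference was 0.84 at 4.5 days, against -0.16 at 12 hours, and the 4.5-day array was its highest. Krt20, a type I keratin of mature surface and intestinal epithelium, was at 11.80 in vehicle, 11.26 at 12 hours, 11.35 at 2.5 days and 11.64 at 4.5 days, with differences of -0.53, -0.45 and -0.15. Each tamoxifen array was below vehicle for Krt20, although at 4.5 days the value turned to 0.01 with the arrays centred on their hybridisation controls. The median over the 5 simple keratins was 0.02 at 12 hours, 0.16 at 2.5 days and 0.22 at 4.5 days, beside -0.02 at each time over all genes. On the same arrays the 4 general epithelium markers had medians of 0.46, 0.49 and 0.65. At 4.5 days Cldn7 was 1.25 and Epcam 0.78 higher, and Cldn18 was at 12.70 against 12.19 in vehicle. Cdh1 was at 12.67 on both arrays. Only Cldn7 passed 2-fold, where 3.8% of expressed genes were at least 2-fold higher. The part of these markers in the values of Krt7 and the other simple keratins was not tested. For scale, single expressed genes differed with a robust SD of 0.27, 0.35 and 0.39 in these comparisons, and of 0.15 between the 4.5-day and 2.5-day arrays, the closest pair. Except for Krt18 and Krt20 at 12 hours, Krt20 at 2.5 days and Krt7 at 4.5 days, each simple keratin lay within that spread.

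**Figure D1:**
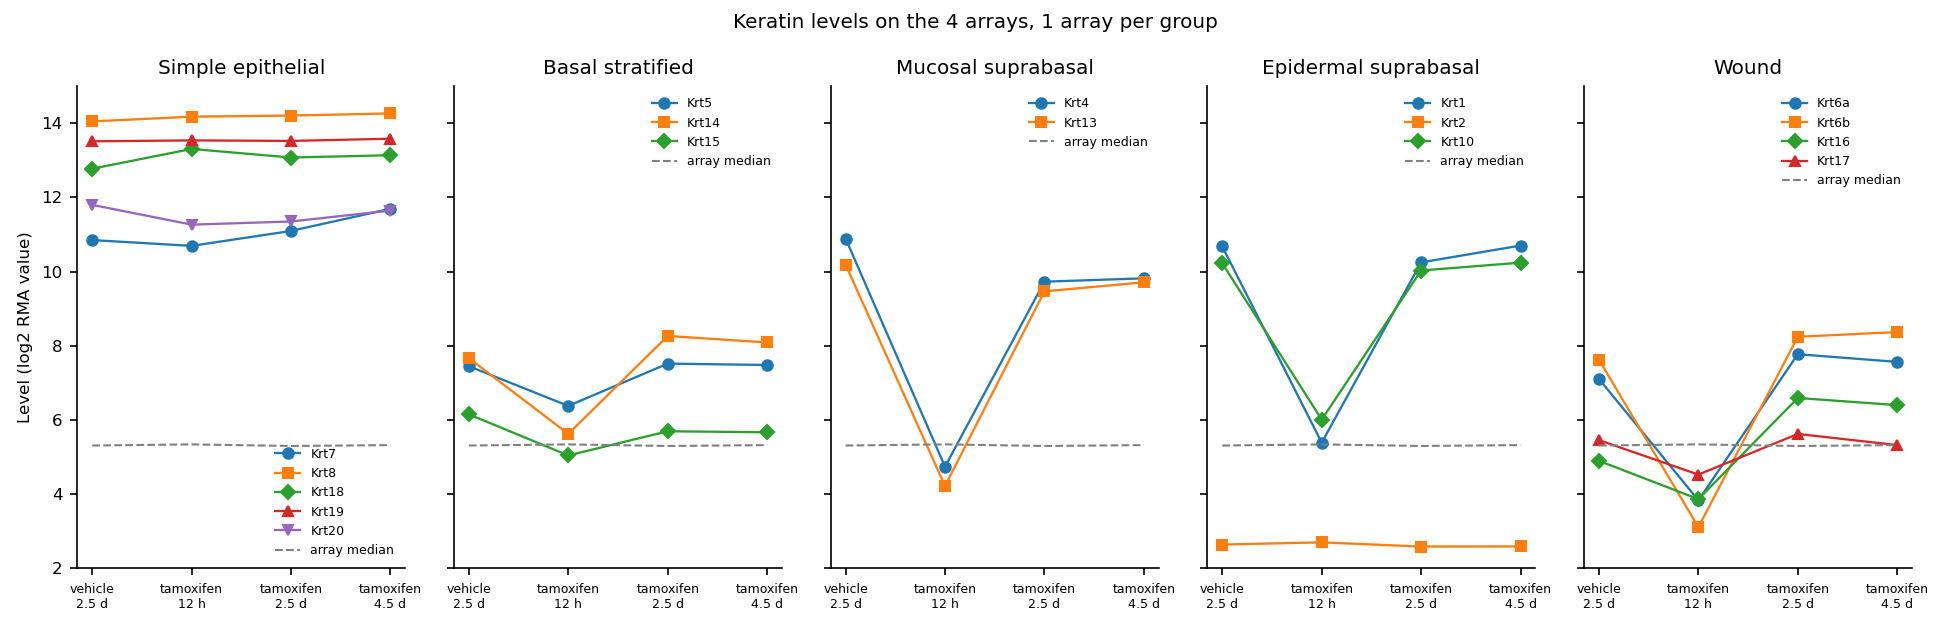
Levels of the 17 simple, squamous and wound keratins on the 4 arrays, in log2 RMA values, with 1 point per array and the median over all probe sets as a dashed line. The simple keratins run nearly level between 10.69 and 14.26, whereas Krt4, Krt13, Krt1, Krt10, Krt6a and Krt6b are far lower at 12 hours than on the other arrays and Krt2 stays near 2.6.

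At 12 hours the squamous keratins were far below vehicle. Of 27 expressed keratins, 10 lay 2-fold or more below vehicle and 0 above it, where 1.92% of the 12255 expressed genes were lower, 0.996% higher and 2.91% in either direction. They were Krt1, Krt4, Krt5, Krt6a, Krt6b, Krt10, Krt13, Krt14, Krt15 and Krt78. Of these, Krt4, Krt6a, Krt6b, Krt13 and Krt15 were below the array median at 12 hours. They passed the level filter only through the vehicle array, where they were high, so the folds of these genes are uncertain. The median over the 12 squamous and wound keratins was -2.65, or -1.33 with each gene taken as the mean of its probe sets, and 8 of them were below the array median at 12 hours, against 2 in vehicle. Their summed linear level was 384 at 12 hours and 6752 in vehicle. The sum over the 5 simple keratins was 44561 at 12 hours and 40952 in vehicle.

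The mucosal suprabasal keratins had a median of -6.06. Krt4, the type II keratin of moist suprabasal layers, stood at 4.74 at 12 hours, against 10.89 in vehicle, a difference of -6.15, and its second probe set gave -4.98. Krt13, its type I partner, was at 4.22 at 12 hours, against 10.19 in vehicle, a difference of -5.97, with -2.65 and -2.95 for its other 2 probe sets. Both partners were thus below the array median at 12 hours and far above it in vehicle. Krt1 and Krt10, the pair of cornifying layers, were at 5.39 and 6.01 at 12 hours, against 10.67 and 10.22 in vehicle, with differences of -5.29 and -4.21. Krt2, which partners Krt10 in the upper epidermis, was near 2.6 on every array, far below the medians, so its difference of 0.06 says nothing of squamous cells. Krt78, a type II keratin outside these classes, differed by -1.14, with 7.10 at 12 hours and 8.24 in vehicle.

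Basal keratins had a median of -1.11, beside -4.21 for the epidermal suprabasal class and -2.15 for the wound class. Krt5, the basal type II keratin, stood at 6.38 at 12 hours, against 7.45 in vehicle, a difference of -1.07. Krt14, its partner, was at 5.62 at 12 hours, against 7.66 in vehicle, a difference of -2.04, and its other 2 probe sets gave -1.40 and -0.32. Krt15, a type I keratin of basal and progenitor cells, differed by -1.11, with 5.04 at 12 hours and 6.15 in vehicle. Among wound keratins, Krt6b differed by -4.51, at 3.11 at 12 hours and 7.62 in vehicle. Krt6a was at 3.84 at 12 hours, against 7.10 in vehicle, a difference of -3.27, although its dimmer probe sets gave -0.30 and -0.65. Krt16 and Krt17, type I partners of the Krt6 proteins, differed by -1.03 and -0.93. Krt16 was not counted, since it was below the median on both arrays, at 3.86 at 12 hours and 4.90 in vehicle, and Krt17 did not reach 2-fold. Krt6a and Krt6b are close copies of each other, as are parts of Krt14, Krt16 and Krt17, so their probe sets may read each other's RNA. In pooled tissue RNA, fewer cells of a type and less RNA per cell cannot be told apart.

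Markers of other tissues differed on the same array. Over all expressed genes, 1.92% were at least 2-fold lower at 12 hours and 0.996% higher. Of 10 forestomach squamous markers, 6 were at least 2-fold lower and 1, Sprr1a, was higher, with a median of -4.18. Their summed linear level was 4526 at 12 hours and 8735 in vehicle, and 8 of 10 were below the array median at 12 hours against 2 in vehicle. Sprr1a, a cornified envelope precursor, stood at 12.07 at 12 hours, against 10.93 in vehicle, and made up most of the sum at 12 hours. No RMA value is 0, and Rptn, at 2.81, was the lowest of them at 12 hours. The 4 measured pancreatic acinar markers were 7.17 to 9.32 higher, with a summed linear level of 30800 at 12 hours and 128 in vehicle, while at 2.5 and 4.5 days their medians were -0.34 and -0.50. The 9 measured corpus gland markers had a median of -0.09, with none past 2-fold, and all 9 were above the array medians on every array. At 2.5 and 4.5 days their medians were -0.47 and -0.37. At each of these times 4 were at least 2-fold lower, where 1.94% and 2.72% of expressed genes were. The part of squamous and pancreatic tissue in the keratin differences was not tested, and at 12 hours treatment and collection time cannot be told apart.

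**Figure D2:**
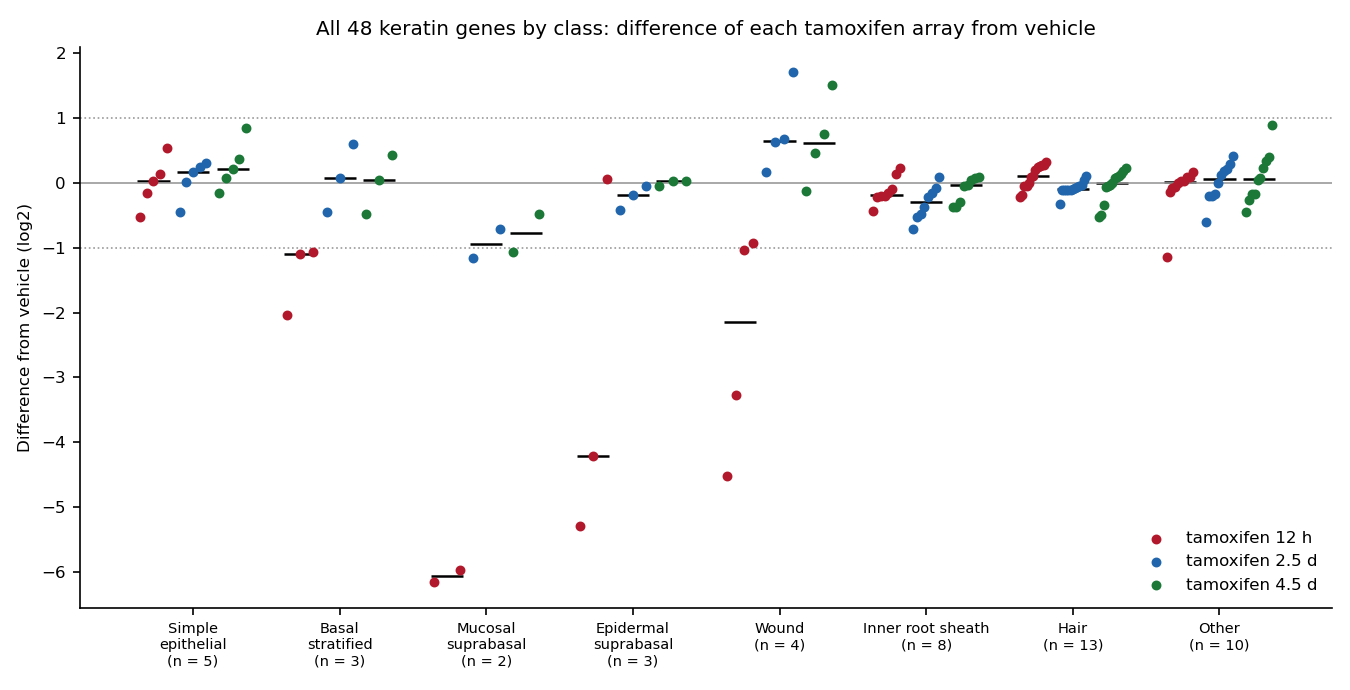
Difference of each tamoxifen array from vehicle, in log2 units, for all 48 keratins by class, with 1 point per gene, black bars at the class medians and dotted lines at 2-fold. At 12 hours the medians of the squamous and wound classes run between -6.06 for mucosal suprabasal and -1.11 for basal keratins, while over the 3 times the simple keratins lie between -0.53 and 0.84 and those of hair and the inner root sheath between -0.71 and 0.31.

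At 2.5 days, the time at which vehicle was taken too, the squamous and wound keratins lay on both sides of vehicle. Of the 8 outside the wound class 6 were below vehicle, with a median of -0.31. The 6 include Krt2, which differed by only -0.05 at a level far below the array medians. The 4 wound keratins were above vehicle, with a median of 0.64, and both mucosal suprabasal keratins below it, with a median of -0.94. Of 28 expressed keratins 1 was at least 2-fold higher, Krt16, and 1 at least 2-fold lower, Krt4, where 3.32% of the 12295 expressed genes were higher, 1.94% lower and 5.25% in either direction. These shares of keratins are close to those over all genes. Over all 12 squamous and wound keratins 6 were above vehicle and 6, again with Krt2, below, so their pooled median of 0.01 describes neither set.

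Krt16, which marks wounded and hyperproliferating epidermis, was at 6.59 at 2.5 days and 4.90 in vehicle, a measured difference of 1.69. The vehicle level was below the array median, so Krt16 passed the level filter only through the array where it was high and the fold is uncertain. With a filter at the 75th percentile Krt16 dropped out, and Krt4 was then the 1 keratin past 2-fold. The other wound keratins lay above vehicle by less than 2-fold. Krt6a was at 7.77 at 2.5 days, against 7.10 in vehicle, a difference of 0.67. Krt6b was at 8.24 at 2.5 days, against 7.62 in vehicle, a difference of 0.62. Krt14, a basal keratin, was on the same side, at 8.26 at 2.5 days, against 7.66 in vehicle, a difference of 0.60, with 0.93 and -0.06 for its other probe sets. Krt17 differed by 0.17, or by -0.44 in its dimmer probe set. Krt4 was at 9.73 at 2.5 days and 10.89 in vehicle, a difference of -1.16, and its second probe set gave -1.20. Krt13 differed by -0.72, Krt78 by -0.60, Krt15 by -0.45, Krt1 by -0.43 and Krt10 by -0.19, while Krt5 was at 0.07. Krt14, Krt6a, Krt6b and Krt16 therefore stood on the other side of vehicle from the suprabasal pairs. The 10 forestomach markers had a median of -0.63, with a summed linear level of 6430 at 2.5 days and 8735 in vehicle, 2 of them at least 2-fold lower and 1, Ivl, at least 2-fold higher. Their part in these differences was not tested.

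At 4.5 days Krt16, Krt6a, Krt6b and Krt14 were again above vehicle and Krt4 and Krt13 below it. Of 28 expressed keratins, Krt16 was again the 1 at least 2-fold higher and Krt4 the 1 at least 2-fold lower, where 3.8% of the 12304 expressed genes were higher, 2.72% lower and 6.53% in either direction. With the arrays centred on hybridisation controls, which moved the median of all genes by 0.16, Krt7 and Krt79 joined Krt16 and Krt4 fell short at -0.91. Krt16 was at 6.40 at 4.5 days and 4.90 in vehicle, again passing the filter only through the tamoxifen array. Krt6b was at 8.37 at 4.5 days, against 7.62 in vehicle, a difference of 0.75, while Krt6a differed by 0.46 and Krt14 by 0.42. Krt4 was at 9.82 at 4.5 days, against 10.89 in vehicle, a difference of -1.07. Krt13 was at 9.71 at 4.5 days, against 10.19 in vehicle, a difference of -0.48. Krt1 and Krt10 were at vehicle's level, with differences of 0.03 and 0.02. Krt5 was at 0.03, Krt15 at -0.48 and Krt17 at -0.13, the last turning to 0.03 with that centring. The forestomach markers had a median of -0.45 and a summed linear level of 7928 at 4.5 days and 8735 in vehicle, with 1 of 10, Ivl, at least 2-fold higher and none lower. All comparisons with vehicle share the 1 vehicle array, so the like values at 2.5 and 4.5 days are not independent of each other. Vehicle was taken 2 days before the 4.5-day array, which the comparison cannot separate from treatment.

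Between tamoxifen arrays the squamous keratins differed between 12 hours and 2.5 days and little after. Against 12 hours, the 2.5-day array had 10 of 28 expressed keratins at least 2-fold higher and none lower, where 2.58% of the 12213 expressed genes were higher, 0.655% lower and 3.23% in either direction. They were Krt1, Krt4, Krt5, Krt6a, Krt6b, Krt10, Krt13, Krt14, Krt16 and Krt17. Of these, Krt4, Krt6a, Krt6b, Krt13, Krt16 and Krt17 were below the array median at 12 hours. They passed the level filter only through the 2.5-day array, where they were high, so their folds are uncertain. Krt1 was 4.86 higher at 2.5 days than at 12 hours, Krt4 4.99, Krt6a 3.94, Krt6b 5.13, Krt10 4.02, Krt13 5.25 and Krt16 2.73. The wound class had a median of 3.33 and the basal class 1.14 in this step. Between 4.5 and 2.5 days none of 28 expressed keratins reached 2-fold, where 0.248% of the 12118 expressed genes were higher, 0.182% lower and 0.429% in either direction. Krt7, with 0.60, differed most in that step, above the spread of 0.15 over expressed genes, and Krt79 and Krt1 followed with 0.47 and 0.45.

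Partner keratins were set side by side because filaments need both types. The gap given is the type II minus the type I difference from vehicle. For Krt4 and Krt13 it was -0.18 at 12 hours, -0.44 at 2.5 days and -0.59 at 4.5 days. The order at 12 hours turned with the probe set, since the second one of Krt4 gave -4.98, against -5.97 for Krt13, and both genes were below the array median there. For Krt8 and Krt18 it was -0.40, -0.14 and -0.15, with Krt18 showing the more positive difference. For Krt7 and Krt19 it was -0.18, 0.24 and 0.77. These simple pairs had both members within 2-fold of vehicle throughout. For Krt5 and Krt14 the gap was 0.97, -0.53 and -0.39, and for Krt1 and Krt10 it was -1.07, -0.23 and 0.01. For Krt6a and Krt16 it was -2.23, -1.03 and -1.04, and for Krt6b and Krt17 it was -3.59, 0.45 and 0.88. These wound gaps rest on the probe set used, since Krt6a differed by -1.41 at 12 hours with the mean over its probe sets, and on Krt16, which was below the array median on both arrays at 12 hours.

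**Figure D3:**
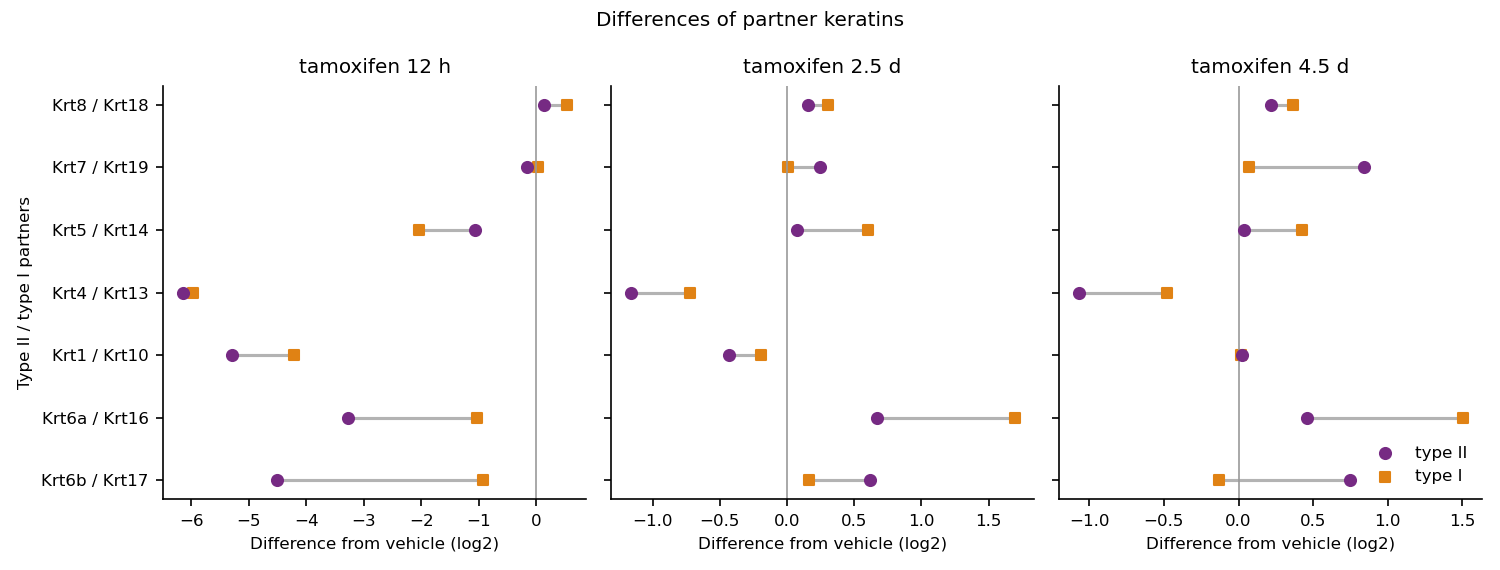
Differences from vehicle, in log2 units, of type II keratins (circles) and type I keratins (squares) that form filaments together, with 1 panel per tamoxifen array and a wider axis at 12 hours. Krt4 and Krt13 lie close together at -6.15 and -5.97 at 12 hours, while Krt6a and Krt16 lie apart in each panel with the probe sets used.

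Neighbouring keratin genes often differed from vehicle by unlike amounts. On chromosome 11, Krt13, Krt15 and Krt19 follow each other among the keratin genes, and at 12 hours they differed from vehicle by -5.97, -1.11 and 0.02. On chromosome 15, the keratin genes in order Krt4, Krt79, Krt78, Krt8 and Krt18 differed by -6.15, 0.09, -1.14, 0.13 and 0.53. Krt6b, Krt6a and Krt5, also neighbours, differed by -4.51, -3.27 and -1.07 at 12 hours, and by 0.62, 0.67 and 0.07 at 2.5 days. The adjacent Krt14, Krt16 and Krt17 differed by 0.60, 1.69 and 0.17 at 2.5 days.

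Of the 9 keratins with several probe sets, 7 had probe sets on opposite sides of vehicle at 1 or more of the times, and Krt4 and Krt8 did not. The probe sets of Krt13, Krt14 and Krt6a spread widely at 12 hours, where several of them lay below the array median. The brightest probe set gave the most negative difference in each of these genes. Krt42, a type I keratin of nail and named here after its values were seen, had 1 probe set between 11.83 and 12.24 and another between 4.40 and 5.01. The bright one differed from vehicle by 0.16, -0.17 and -0.26 at the 3 times in order and the dim one by -0.23, -0.45 and -0.60, so the level of Krt42 in this tissue was not settled by the array.

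**Figure D4:**
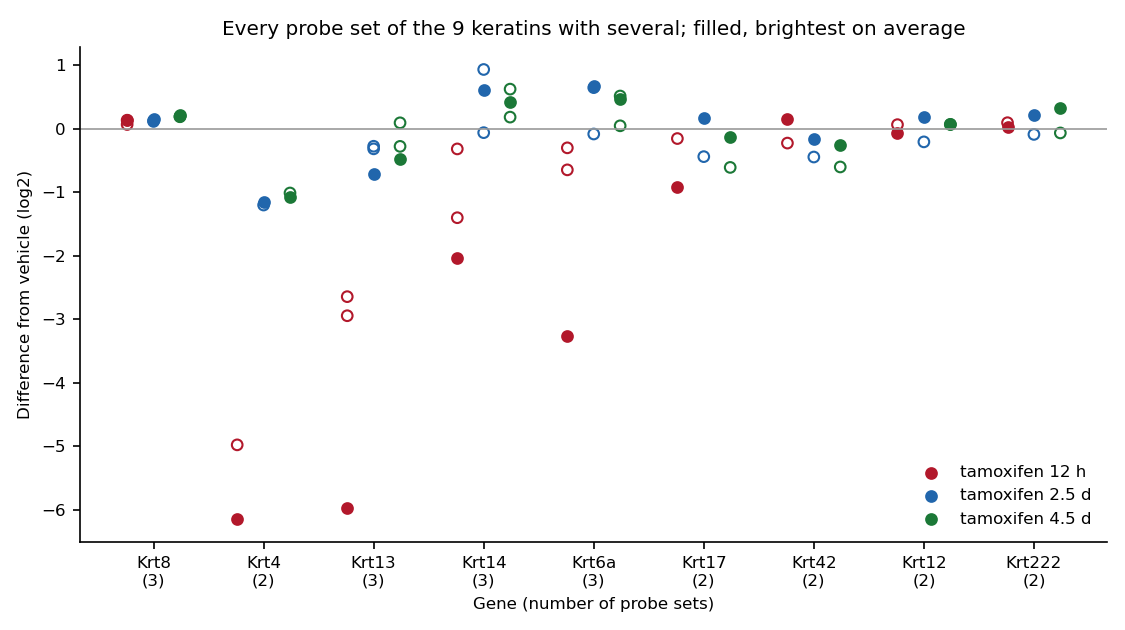
Difference from vehicle, in log2 units, of every probe set of the 9 keratins that have several, with the probe set used for the gene filled. For Krt13 the 3 probe sets lie between -5.97 and -2.65 at 12 hours and for Krt6a between -3.27 and -0.30, while the 3 of Krt8 lie within 0.07 of each other.

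Keratins of hair and the inner root sheath differed little. None of these 21 reached 2-fold against vehicle in any comparison, their differences ran from -0.71 to 0.31, and 14 were below the array median on every array. Over all expressed genes, 2.91%, 5.25% and 6.53% reached 2-fold in either direction at the 3 times in order. Among the 10 remaining keratins Krt78 alone passed 2-fold, at 12 hours. Of the others that were expressed, Krt23, Krt79 and Krt80 are named after their values were seen. Krt79, a type II keratin of hair follicle openings and sebaceous ducts, was at 7.53 in vehicle, 7.62 at 12 hours, 7.94 at 2.5 days and 8.41 at 4.5 days. Krt23, a type I keratin, was at 9.96 in vehicle, 10.04 at 12 hours, 10.25 at 2.5 days and 10.36 at 4.5 days, and Krt80 stayed between 7.86 and 8.15. Krt79 and Krt23 were thus, like Krt7, highest on the 4.5-day array, by 0.88 and 0.40 over vehicle.

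Among genes for proteins that anchor keratins, some were lower at 12 hours like the squamous keratins and others were not. Of 17 measured desmosome and plakin genes 14 were expressed, and at 12 hours 2 of them lay 2-fold or more below vehicle and 0 above it. Over all expressed genes, 1.92% were lower at that time and 0.996% higher. The median over the 17 was -0.08. The 2 lower genes were Dsc1 and Pkp1. Dsc1, a desmosomal cadherin of differentiated squamous layers, was at 2.78 at 12 hours and 6.53 in vehicle. Pkp1, a plakophilin of stratified epithelium, was at 5.64 at 12 hours and 7.56 in vehicle. Ppl, the cornified envelope linker periplakin, differed by -0.66. Dsg1b and Dsc3 differed by -1.37 and -1.02 at 12 hours but were below the median on both arrays and were not counted. Of the 17 genes, 9 were below vehicle and 8 above it at that time. At 2.5 and 4.5 days none of the desmosome genes reached 2-fold, with Dst, a plakin that ties keratins to hemidesmosomes, furthest at -0.74 and -0.77. Of 14 measured cornified envelope genes, 12 were expressed at 12 hours, 9 at least 2-fold lower and 1 higher, with a median of -3.80. Among them Crct1 differed by -5.35, Krtdap by -7.15, Lor by -5.32 and Rptn by -6.68, all with 12-hour levels below the array median. The median of the 14 was -0.63 at 2.5 days and -0.43 at 4.5 days. This list overlaps the forestomach markers given above.

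Transcription factors of squamous differentiation and other filament genes showed few differences that passed both the level filter and 2-fold. None of 14 measured squamous factors passed both the level filter and 2-fold at any time against vehicle. Trp63, the p63 gene of basal squamous cells, was dim, at 5.22 in vehicle, 3.95 at 12 hours, 5.19 at 2.5 days and 5.57 at 4.5 days. It differed from vehicle by -1.27 at 12 hours and was 1.25 higher at 2.5 days than at 12 hours. Both differences passed 2-fold but were not counted, since Trp63 was below the median on these arrays. Klf5, a zinc finger factor of proliferating epithelium, differed by 0.52, 0.40 and 0.46. Sox2, a factor of foregut epithelium, differed by -0.36, 0.30 and 0.22, and Zfp750, a factor of terminal epidermal differentiation, by -0.14, 0.39 and 0.10. Of 13 other intermediate filament genes, none passed 2-fold at 12 hours or 2.5 days, and 1 was higher and 1 lower at 4.5 days. At that time 3.8% of expressed genes were at least 2-fold higher and 2.72% lower. At 4.5 days Lmnb1, a nuclear lamin, was 1.23 higher, at 9.69 at 4.5 days, against 8.46 in vehicle, and Synm, a muscle filament protein, just reached 2-fold lower, at 8.86 against 9.87 in vehicle. Des, the muscle filament desmin, differed by -0.43, -0.77 and -0.61, and Prph, a neuronal filament, by 0.10, -0.17 and -0.60. Beside these, 5 smooth muscle markers had medians of -0.43, -0.77 and -0.69, with none past 2-fold, and their part was not tested. Among 7 keratin-binding or regulatory genes, Trim29, a squamous epithelial protein, was 1.01 lower at 12 hours, where 1.92% of expressed genes were at least 2-fold lower. Sfn, the 14-3-3 protein that binds keratins, differed by 0.59, 0.78 and 0.88 without passing 2-fold.

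Genes with the pattern most like Krt4 were sought among 1160 genes that were at or above the median on at least 1 array and spanned at least 2-fold. By Euclidean distance between centred log2 values over the 4 arrays, they were Gm94 at 0.21, Lce1f at 0.36, Krt13 at 0.46, Serpinb12 at 0.49 and Rptn at 0.55. Krt4 and all of these genes were below the array median at 12 hours and passed the filter only through other arrays. The likeness to Krt4 thus rests largely on 1 array with levels that may lie near background. For Krt8, whose range was 0.22, the closest of 12444 genes were Polr1c at 0.01, then Dpp3, Slc35f6, Fkbp8 and Tmem43 at 0.02. With 4 arrays and such a flat profile, the likeness to Krt8 describes genes that barely differed.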

How the data were processed

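Log2 values for 45101 probe sets were deposited by the authors. The submitters' processing notes name RMA and Partek, with no versions. RMA subtracts background, gives the arrays a common distribution and summarises probes, which hides any shift common to most genes. The log base was inferred from the values. Control probe sets, 64 in number, and probe sets with several or no symbols were left out of gene counts. Symbols came from the platform annotation and none needed updating through RefSeq. Promoter sequences are RefSeq's, build GRCm38.p6. Arrays carry no read depth, and their number limits the precision.

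Differences of log2 values were computed with Python 3.11.15, numpy 2.4.6 and pandas 2.3.3, and those of at least 2-fold were counted, without a test, since each group was 1 array. Figures were drawn with matplotlib 3.10.9. Hybridisation controls, 18 in number, gauged technical error of the hybridisation and not of pooling or amplification. Against vehicle their mean differences were 0.04, -0.13 and -0.16 at the 3 times in order, with an SD of 0.08 to 0.10 around these means. Named were all simple, basal, suprabasal and wound keratins, other keratins past 2-fold, up to 4 genes per partner list with the largest differences, and the 5 genes most like Krt4 and Krt8. The members, classes and lists were chosen with earlier results of these data known. Alternatives covered the probe set, the level filter, the centring and the list. Listed keratins that are not named by these probe sets, 7 in number, are not analysed here.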

Additional observations from a re-analysis of the deposited data

Results flagged for a closer look

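Krt14, Krt6a and Krt6b lay on opposite sides of vehicle at 12 hours and at the later times, each by more than 0.30, which is 2 times the spread between the closest arrays. Krt14 differed by -2.04 at 12 hours, 0.60 at 2.5 days and 0.42 at 4.5 days. Krt6a differed by -3.27, 0.67 and 0.46 at these times, and Krt6b by -4.51, 0.62 and 0.75. The spread of expressed genes against vehicle was wider, with a robust SD of 0.35 at 2.5 days and 0.39 at 4.5 days. None of the later values of these genes reached 2 times that spread. Other probe sets did not all show this, as 1 of Krt6a gave -0.65, -0.09 and 0.04 and 1 of Krt14 gave -0.32, -0.06 and 0.18. Krt16 also lay on both sides, with -1.03 at 12 hours and 1.69 at 2.5 days, but was below the array median on both arrays at 12 hours and was left out for that reason. With 1 array per time the difference between times was not tested, and all 3 comparisons share the vehicle array. The forestomach squamous markers had medians of -4.18, -0.63 and -0.45 at the same times, and their part was not tested.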

How the results depend on the processing

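The count of 10 keratins at least 2-fold apart at 12 hours, all lower, ranged from 8 to 11 over the probe set, filter and centring alternatives. At 2.5 and 4.5 days the counts of 2 became 1 and 1 with a filter at the 75th percentile, which Krt16 does not reach. Centring on hybridisation controls moved the median of all genes by 0.13 at 2.5 days and 0.16 at 4.5 days. At 4.5 days it gave 3 keratins higher and 0 lower, and medians of 0.38 for simple and 0.19 for squamous and wound keratins, against 0.22 and 0.02 as deposited. These moves equal the shift of all genes. The 12-hour median of squamous and wound keratins, -2.65, was -1.33 with the mean over all probe sets, -3.74 over expressed members and -3.13 without wound keratins. With only probe sets that carry no s, x or a mark in their names it was -1.40. That value covers 11 genes, since Krt10 has no such probe set. The wound keratins raised the 2.5-day median, which was -0.31 without them. Choosing each gene's probe set without the 12-hour array, an alternative added after seeing the data, changed no count and moved no median by more than the spread of 0.15 between the closest arrays. No difference of at least 2-fold among the named keratins changed sign under the alternatives run. No paired analysis was possible because each group has 1 array. Leaving out a replicate was not possible for the same reason.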
